A study of Homo sapiens with 34 samples.

Results

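TAL1, LYL1, LMO2, LDB1, TCF3 and CBFA2T3 encode parts of a transcription factor complex of early blood cells, and they were taken by symbol from a table of gene expression. All 6 were found, once each, among 20255 genes, and all 6 passed the filter on low values (at least 10 in at least 3 samples), as 19788 genes did. TAL1 (also SCL) and its close relative LYL1 are basic helix-loop-helix (bHLH) proteins, which bind DNA as dimers with an E protein such as the product of TCF3 (E2A). LMO2 is an adaptor that does not touch DNA itself. It joins the bHLH dimer to a GATA factor and to LDB1, a scaffold that binds to itself and so can bring distant sites together. CBFA2T3 (ETO2, MTG16) is a corepressor of the ETO family that joins the complex and brings histone deacetylases to it. In the embryo TAL1 and LMO2 are required for the onset of blood formation, and the complex later acts at erythroid and megakaryocyte genes.

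The samples were RNA of the human embryonic stem cell line H1, an established line, on its way to blood through embryoid bodies (EBs) without haematopoietic cytokines. Per the labels, the day 0 EBs had BMP4+hVEGF and all cells from day 2 on had hVEGF. In the study's methods day 0 was the start of EB attachment. BMP4, hVEGF and Thiazovivin were in the medium from then to day 2, and hVEGF was the factor kept afterwards. Day 2 cells had thus been in BMP4 up to that day. EBs at day 0 and the cells of days 2 and 4 were taken whole. Those of days 6, 9 and 12 were sorted into CD43+ and CD43- fractions, and those of day 16 into CD43+/CD45+ and CD43-CD45- fractions, named by CD43 alone below. CD43 (gene SPN) and CD45 (gene PTPRC) are surface proteins of blood cells. Each of these 11 populations had 3 samples, described as independent biological replicates in the study's methods, and 1 undifferentiated H1 sample was untreated. All of them came from this 1 line, and the unsorted samples are mixtures of cells. The question was when each part of the complex appeared on the way to blood cells, and in which sorted cells.

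The deposited values are whole numbers made from tag counts by normalization for GC content, and they do not show sequencing depth because the 34 samples held the same numbers in another order. A value is therefore close to a rank of a gene among genes of like GC content. It is not divided by gene length, so levels of different genes are not compared. In bulk samples such as these, fewer cells of a type and less RNA per cell cannot be told apart. The 6 blood cell markers include SPN and PTPRC, the genes of the proteins used for sorting (CD45 on day 16). Of them 4 were called higher in CD43+ cells on day 6 and 6 of 6 on days 9, 12 and 16. Of 10 erythroid markers, 10, 10, 10 and 6 were called higher on these days. Of 6 early mesoderm markers, 6 were called higher at day 2 than at day 0. In CD43- cells the 10 mesenchymal markers were higher for 7 genes on day 6 and for 10 on each later day. The labelled populations thus carried their markers, but not these alone. In day 6 CD43+ cells the mesenchymal markers summed to 59694, 74808 and 156322, against 202247 to 250050 in CD43- cells of that day. There 12 endothelial markers summed to 34976 to 44911, against 36163 to 115165. The part of such cells in the member values was not tested. The day 16 CD43- cells also held signal of several blood lineages. In them 7 megakaryocyte markers summed to 4598 to 14097 against 204 to 1220 in day 12 CD43- cells. The 6 neutrophil lineage markers summed to 7164 to 26180 against 84 to 7377, and the 10 erythroid markers to 2594 to 5199 against 21 to 326. The 6 mast cell and eosinophil markers summed to 886 to 4282 against 0 to 507. Of 6 macrophage markers, however, 4 were called lower than in day 12 CD43- cells, at sums of 1055 to 1476 against 246 to 5321.

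All 6 genes lie on the minus strand of GRCh38. TAL1 spans chr1:47216290-47232220, LYL1 chr19:13099033-13103161, LMO2 chr11:33858576-33892289, LDB1 chr10:102107560-102120453, TCF3 chr19:1609290-1652605 and CBFA2T3 chr16:88874858-88977204. Upstream sequence is shown for TAL1 and LYL1, the bHLH genes that moved most, because it can be searched for letters that GATA factors and bHLH dimers bind. The windows were the 250 bases before annotated starts, from RefSeq on GRCh38.p14, and a window was found for each gene except LMO2, with a pair of windows for TAL1. The TAL1 sequence is chr1:47232336-47232585 on the minus strand, ends just before the start at 47232335 and overlaps no annotated exon. The LYL1 sequence is chr19:13102868-13102897 on the minus strand, covers bases -39 to -10 before the start at 13102858, and lies in an exon of a longer annotated transcript. Capitals mark GATAA as read on the opposite strand.
TAL1: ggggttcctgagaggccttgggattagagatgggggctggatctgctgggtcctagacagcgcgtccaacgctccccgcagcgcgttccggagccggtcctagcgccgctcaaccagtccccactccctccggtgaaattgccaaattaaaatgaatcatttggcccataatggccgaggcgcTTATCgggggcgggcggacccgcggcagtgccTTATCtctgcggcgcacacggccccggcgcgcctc
LYL1: cagccaggctccTTATCaggcgcggccagg

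Searched on both strands, GATAA occurred in the TAL1 window at -67 and -35 and in the LYL1 window at -27. Of 35114 promoter windows of this length, 20.445% held GATAA and 3.867% held it at least 2 times. The letters CANNTG, the core that bHLH dimers read, occurred in the TAL1 window at -93 and in the CBFA2T3 window at -73, and 61.816% of all windows held them. No match of CANNTG overlapped one of GATAA. Neither was in the second TAL1 window or in the LDB1 and TCF3 windows. A match is a description of letters and not a site of binding.

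TAL1 was close to 0 at the start and climbed most between days 2 and 4. In EBs at day 0 it had values of 1, 3 and 8 (4.0 ± 3.61, SD, n = 3). At day 2 the values were 13, 16 and 16. At day 4 they were 1837, 2431 and 1856, and in day 6 CD43+ cells 6335, 5979 and 5760. None of these populations overlapped another. The tests were made with limma on log2(value + 1), and a gene was called at a Benjamini-Hochberg adjusted p below 0.05 with a change of more than 4-fold, a log2 difference beyond 2. Day 2 was 1.94 higher than day 0 on this scale (SE 0.42, adjusted p = 5.62e-04, 95% interval 1.08 to 2.79), which missed the fold threshold. This value rests on single-digit levels: it was 2.49 without day 0 replicate 3, 2.03 without day 2 replicate 1 and 2.31 with a pseudocount of 0.1, all called, and 0.86 with a pseudocount of 10. Day 4 rose by 6.99 over day 2 and by 8.93 over day 0 (adjusted p = 6.79e-16), the latter between 7.21 and 9.39 with pseudocounts of 10 and 0.1.

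LYL1 was up by day 2. Its values were 15, 14 and 14 at day 0, 180, 156 and 113 at day 2, 850, 1054 and 984 at day 4, and 2574, 2518 and 2912 in day 6 CD43+ cells. Each population stood clear of the one before it. The rise from day 0 to day 2 was 3.27 on the log2 scale (SE 0.24, adjusted p = 3.38e-11), and from day 2 to day 4 a further 2.70. From day 4 to day 6 CD43+ cells LYL1 was 1.47 higher, which was not called.

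LMO2, the adaptor, followed LYL1 at day 2 and then rose late. Values were 32, 12 and 24 at day 0, 200, 241 and 246 at day 2, 516, 658 and 612 at day 4, and 4718, 4544 and 4154 in day 6 CD43+ cells. Day 2 was above day 0 by 3.38 (SE 0.27, adjusted p = 1.73e-10). The step from day 2 to day 4 was 1.37 and not called, while the step from day 4 to day 6 CD43+ cells was 2.91 (adjusted p = 1.87e-09). LMO2 was the 1 member called in that last step, in which 6.80% of all genes were called higher. With pseudocounts of 10 and 0.1 the day 2 rise lay between 2.92 and 3.44 for LMO2 and between 2.69 and 3.35 for LYL1.

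CBFA2T3, the corepressor, was not yet up at day 2 and rose by day 4. It had 63, 114 and 96 at day 0, 35, 30 and 41 at day 2, 670, 694 and 746 at day 4, and 1870, 1592 and 1821 in day 6 CD43+ cells. The day 2 samples were all below the day 0 samples, with a difference of -1.31 (adjusted p = 7.37e-04) that missed the fold threshold. Day 4 was 4.29 above day 2 and 2.98 above day 0 (adjusted p = 1.97e-09), both called.

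LDB1 and TCF3 were not called from day 0 to day 6. LDB1, the scaffold, had 2210, 2058 and 2255 at day 0, 1774, 1726 and 1752 at day 2, 3322, 3136 and 3279 at day 4, and 5250, 5312 and 4508 in day 6 CD43+ cells. The last population was 1.20 above day 0 (adjusted p = 2.35e-10), short of the fold threshold. TCF3, the E protein partner, had 6812, 7026 and 7478 at day 0, 7026, 6912 and 6812 at day 2, 5398, 5308 and 5398 at day 4, and 4539, 4602 and 4472 in day 6 CD43+ cells. Its differences from day 0 were -0.04 (adjusted p = 0.891) at day 2, where the samples overlapped, and -0.65 in day 6 CD43+ cells, where they did not.

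**Figure D1:**
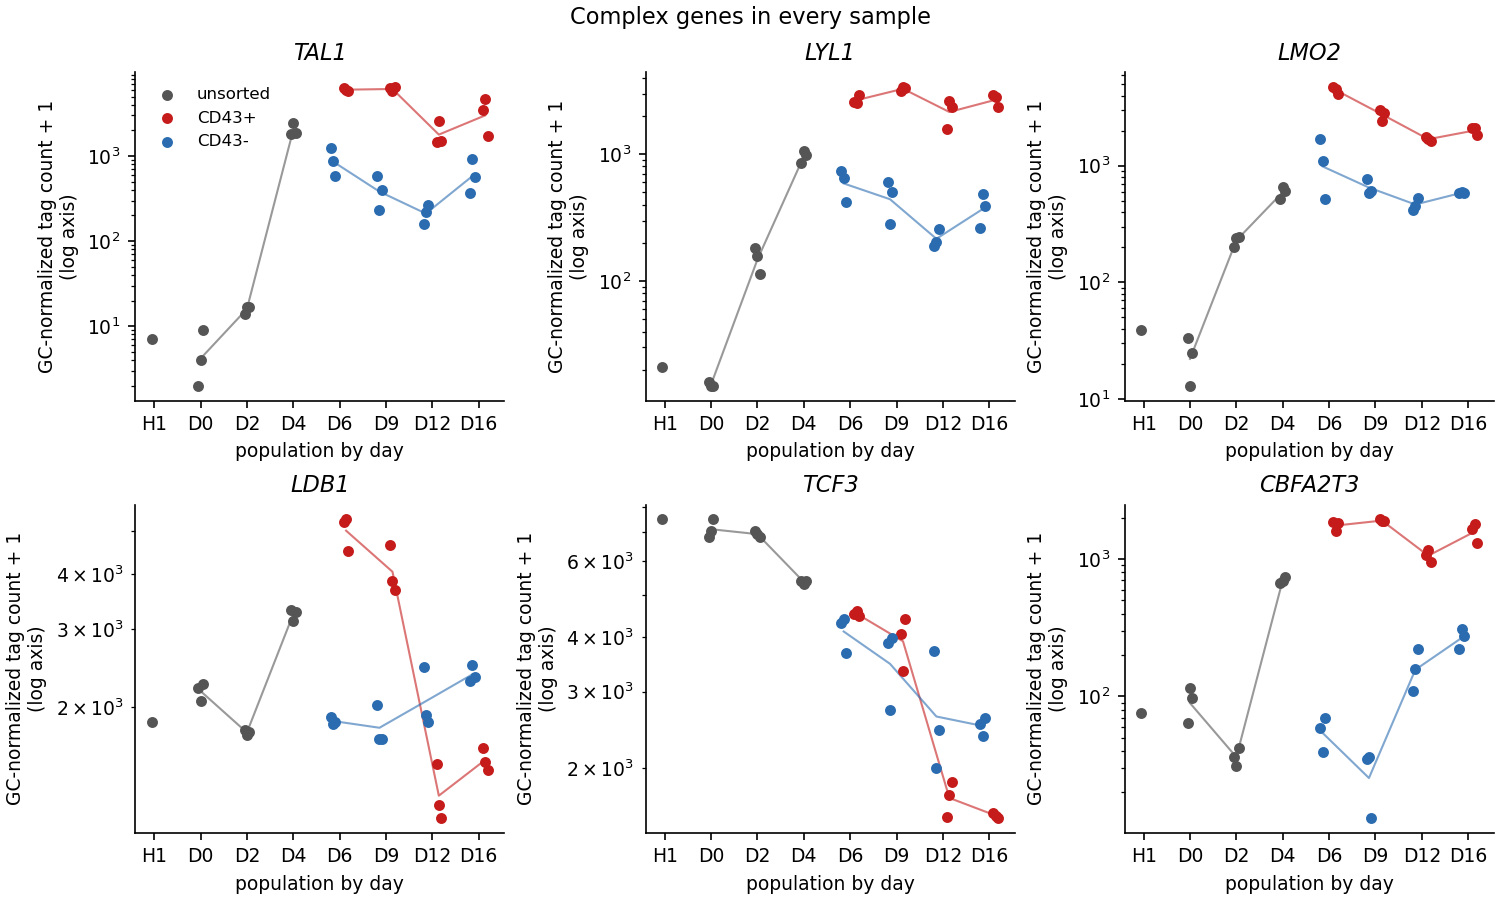
Values of the 6 genes in every sample, 1 panel a gene, as value + 1 on a log axis against population; grey points are unsorted samples, red CD43+ and blue CD43-, and lines join geometric means. TAL1 spans 1 to 6442 from its lowest to its highest sample after the undifferentiated one, while TCF3 stays between 1536 and 7478.

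In counts, 2 of the 6 members were called higher at day 2 than at day 0, LYL1 and LMO2, beside 4.40% of all genes, and 0 were called lower beside 3.48%. At day 4 against day 0, 4 of 6 were called higher beside 7.28% of all genes, with TAL1 and CBFA2T3 added, and 0 were lower beside 7.01%. The same 4 were called higher in day 6 CD43+ cells against day 0, beside 10.6% of genes called higher and 10.7% called lower. From day 2 to day 4, 3 of 6 were called higher (TAL1, LYL1 and CBFA2T3) beside 4.97%. Of the whole log2 difference between day 0 and day 6 CD43+ cells, day 2 had reached 44.0% for LYL1, 44.1% for LMO2, 18.5% for TAL1 and -30.5% for CBFA2T3. Day 4 had reached 80.2%, 62.0%, 85.0% and 69.3% in that order. The comparisons with day 0 share its samples, and that of day 4 with day 2 shares the samples of those days with them.

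At the sort on day 6 the members parted unequally. TAL1 had 1230, 883 and 582 in CD43- cells, LYL1 had 742, 648 and 421, and LMO2 had 1700, 1096 and 514. For TAL1 and LYL1 these samples all lay below the day 4 samples, whereas for LMO2 they spread on both sides of them. The differences of day 6 CD43- cells from day 4 were -1.24, -0.71 and 0.73, and none was called. CBFA2T3 alone among the 6 was called lower, with 58, 38 and 68 in day 6 CD43- cells against 670 to 746 at day 4, a fall of 3.70 (adjusted p = 2.95e-10). In this comparison 2.77% of all genes were called lower. The 3 day 6 CD43- samples were ranked alike by TAL1, LYL1 and LMO2, and the summed value of 12 endothelial markers ran in the same order, with 115165, 85359 and 36163 in replicates 1, 2 and 3. None of the 12 endothelial markers was at 0 in all 3 of them, and the 10 mesenchymal markers summed to 202247, 214681 and 250050. Sums of 6 blood cell markers (1681, 1594 and 1571) and 7 megakaryocyte markers (318, 299 and 239) also fell from replicate 1 to replicate 3. The part of any of these cells in the values of TAL1, LYL1 and LMO2 was not tested.

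**Figure D2:**
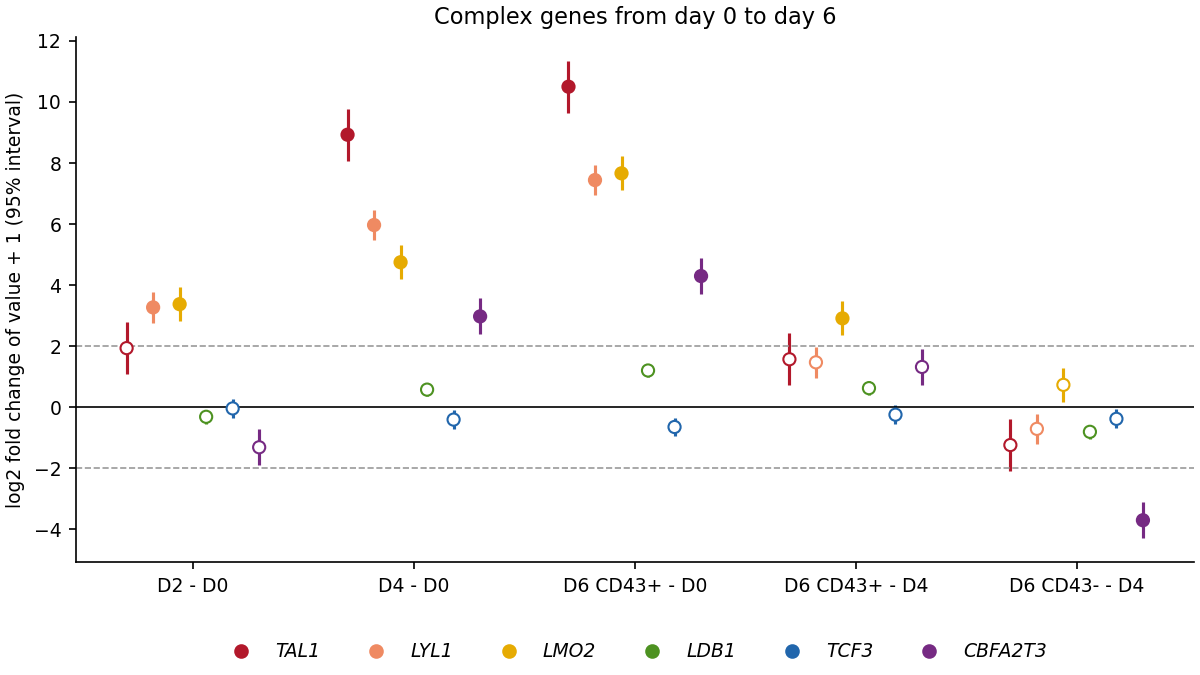
Log2 fold change of value + 1 for the 6 genes (colours), with 95% intervals, for day 2, day 4 and day 6 CD43+ cells against day 0 and for day 6 CD43+ and CD43- cells against day 4; filled points were called, open points were not, and dashed lines mark 4-fold. At day 2 LYL1 (3.27) and LMO2 (3.38) are filled and TAL1 (1.94) is open, and against day 4 LMO2 (2.91) is filled in CD43+ cells and CBFA2T3 (-3.70) in CD43- cells.

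Between CD43+ and CD43- cells of day 6, CBFA2T3 differed most, by 5.02 (SE 0.29, adjusted p = 2.48e-13). TAL1 was 2.81 higher in CD43+ cells (SE 0.42, adjusted p = 3.08e-06), and LYL1 and LMO2 were each 2.18 higher (adjusted p = 3.69e-08 and 2.40e-07). For all 6 members, the uncalled LDB1 and TCF3 included, every CD43+ sample lay above every CD43- sample. The share of all genes that separate in this way was not counted. Without day 6 CD43- replicate 3, LYL1 at 1.94 and LMO2 at 1.71 were no longer called, while TAL1 at 2.53 and CBFA2T3 at 5.20 still were. LDB1 had 1898, 1830 and 1849 in CD43- cells and was 1.43 higher in CD43+ cells (adjusted p = 3.56e-11), which is under 4-fold. TCF3 had 4324, 4422 and 3680 in CD43- cells and differed by 0.14 (adjusted p = 0.473). Its lowest CD43+ sample was 4472, close above these, and the sign of its difference turned under median-of-ratios scaling. In all, 4 of 6 members were called higher beside 4.68% of genes, and 0 were called lower beside 7.85%. The median difference of the 6 was 2.18, against 0.14 over all genes tested.

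On day 9 the same 4 members were called. TAL1 had 6220, 5760 and 6442 in CD43+ cells and 588, 233 and 402 in CD43- cells, a difference of 4.01 (adjusted p = 3.73e-09). LYL1 had 3158, 3371 and 3298 against 603, 280 and 506, a difference of 2.89 (adjusted p = 7.74e-11). CBFA2T3 had 1948, 1896 and 1888 against 34, 35 and 12, a difference of 6.23 (adjusted p = 7.46e-16), the largest among the members on any day. LMO2 had 3035, 2441 and 2826 against 766, 583 and 612. Its difference of 2.08 (adjusted p = 2.08e-07) became 1.87, not called, under median-of-ratios scaling, which moved the median of all genes from 0.24 to 0.04 on this day and from 0.14 to 0.00 on day 6. LDB1 was 1.17 higher and TCF3 0.17 higher (adjusted p = 4.07e-10 and 0.317), neither called, and the sign of TCF3 turned under that scaling on both days. Again 4 of 6 members were called higher, now beside 8.65% of genes, and 0 lower beside 12.8%. Between days 6 and 9 limma called a change in this difference for 0 of 6 members (2 at an unadjusted p below 0.05) beside 7.39% of genes called in either direction.

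On day 12 TAL1, LYL1 and CBFA2T3 were called, while LDB1 and TCF3 had lower means in CD43+ than in CD43- cells. TAL1 (1460, 2602 and 1494 against 157, 221 and 266), LYL1 (1592, 2631 and 2368 against 189, 202 and 258) and CBFA2T3 (1068, 1164 and 956 against 108, 156 and 222) were higher in CD43+ cells by 3.08, 3.32 and 2.76, all called. LMO2, with 1766, 1682 and 1619 against 417, 451 and 532, was 1.86 higher (adjusted p = 1.02e-06), short of 4-fold. LDB1 had 1484, 1201 and 1122 in CD43+ cells and 2464, 1922 and 1849 in CD43- cells, which put CD43+ below CD43- by -0.71 (adjusted p = 1.79e-06, not called). TCF3 likewise stood at -0.62 (adjusted p = 6.26e-04, not called), with 1546, 1730 and 1862 against 3716, 2000 and 2448. Here 3 of 6 members were called higher beside 11.8% of genes and 0 lower beside 14.4%.

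On day 16 these 3 members were called again. TAL1 had 3436, 4640 and 1696 in CD43+ cells against 366, 919 and 572, a difference of 2.38 (adjusted p = 1.44e-05), and LYL1 2912, 2842 and 2335 against 262, 488 and 392, a difference of 2.86. CBFA2T3 had 1670, 1814 and 1320 against 221, 310 and 274, a difference of 2.57 (adjusted p = 1.15e-08). LMO2, at 2096, 2086 and 1850 against 582, 590 and 584, was 1.78 higher (adjusted p = 2.17e-06, not called). LDB1 at -0.64 and TCF3 at -0.69 (adjusted p = 8.12e-06 and 2.32e-04) were again below CD43- cells without being called. The count was 3 of 6 higher beside 12.2% of genes and 0 lower beside 13.6%.

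**Figure D3:**
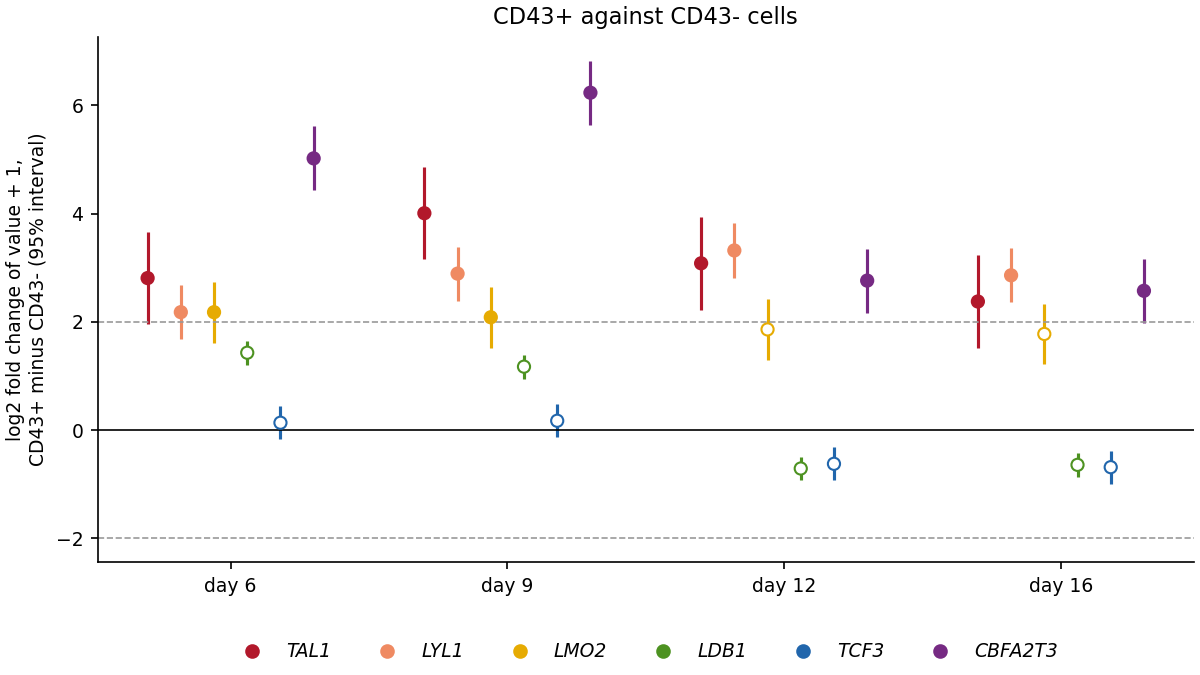
Log2 difference of CD43+ from CD43- cells on days 6, 9, 12 and 16 for the 6 genes, with 95% intervals; filled points were called, open points were not, and dashed lines mark 4-fold. CBFA2T3 runs from 5.02 and 6.23 down to 2.76 and 2.57, and LDB1 passes from 1.43 and 1.17 above 0 to -0.71 and -0.64 below it.

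The difference itself changed with day for LDB1 and CBFA2T3. From day 6 to day 16 the CD43 difference of LDB1 fell by 2.07 (adjusted p = 2.69e-11), and it was -1.93 and not called under median-of-ratios scaling. CBFA2T3 fell by 2.45 over the same interval (adjusted p = 1.80e-05), and by 3.47 from day 9 to day 12 alone (adjusted p = 4.20e-07). LDB1 from day 9 to day 12 was -1.88 (adjusted p = 1.13e-09), just short of the fold threshold. These were 2 of 6 members called lower from day 6 to day 16, beside 9.69% of genes, and 1 of 6 from day 9 to day 12, beside 4.39%. From day 12 to day 16 limma called 0 of 6, with 0 at an unadjusted p below 0.05, beside 5.03% called in either direction.

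CBFA2T3 also changed within the CD43- cells. There it rose by 2.62 from day 9 to day 12 (adjusted p = 1.63e-07), from 27.0 ± 13.0 to 162 ± 57.2 (SD, n = 3 each), the 1 member called there beside 4.52% of genes called higher. Beside this, 6 blood cell markers summed to 1166, 2717 and 4449 in the day 12 CD43- samples, in the same order as CBFA2T3 at 108, 156 and 222, and to 907 to 1103 in day 9 CD43- cells. Of these 6 markers 2 were called higher and 0 lower from day 9 to day 12, and none was at 0 in all 3 samples. Macrophage markers were called higher for 6 of 6 genes in this step and neutrophil lineage markers for 4 of 6. They summed to 246, 4045 and 5321 and to 84, 528 and 7377 in the day 12 samples, again in the order of CBFA2T3, with none at 0 in all 3, after 70 to 144 and 65 to 98 on day 9. Megakaryocyte (204, 487 and 1220), erythroid (21, 115 and 326) and mast cell and eosinophil sums (0, 12 and 507) ran in that order as well. In this step these lists had 0 genes called higher. Of 10 erythroid markers 5 were called lower, and of 7 megakaryocyte markers 1. The part of any of these cells in the rise was not tested. In CD43+ cells CBFA2T3 was 0.85 lower on day 12 than on day 9, which was not called.

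All 6 genes were lower in day 12 than in day 9 CD43+ cells, by less than 4-fold. The differences were -1.78 for TAL1 (adjusted p = 6.90e-04), -0.61 for LYL1, -0.71 for LMO2, -1.68 for LDB1 (adjusted p = 1.38e-12), -1.20 for TCF3 (adjusted p = 1.75e-07) and -0.85 for CBFA2T3. Limma called 0 of 6, although all 6 had an unadjusted and an adjusted p below 0.05, beside 6.54% of genes called lower and 8.45% called higher. TAL1 was called at -2.05 without day 12 CD43+ replicate 2. The median over all genes was -0.15 in this comparison and 0.00 under median-of-ratios scaling. All 10 erythroid markers were called lower on day 12, summing to 7613 to 17578 after 147758 to 249256 on day 9, with none at 0 in all 3 samples, and their part in the 6 differences was not tested.

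Within the later CD43+ populations TAL1 varied most of the 6 for its level. Its SD was 650 around 1852 on day 12 and 1480 around 3257 on day 16, while the SD of LMO2 was 73.7 around 1689 and 139 around 2011. In replicates 1, 2 and 3 the 7 megakaryocyte markers summed to 11404, 41874 and 26531 on day 12 and to 60393, 92357 and 24807 on day 16, in the same order as TAL1 in each. The 10 erythroid markers, at 7613, 17578 and 12245 on day 12 and 11685, 13903 and 6491 on day 16, ran in that order too. All 7 megakaryocyte markers were called higher in CD43+ than in CD43- cells on both days, the erythroid markers for 10 genes on day 12 and 6 on day 16, and none of either list was at 0 in all 3 samples. The 12 endothelial markers also ran in the order of TAL1, at 7217, 10182 and 7888 on day 12 and 14761, 16356 and 11830 on day 16. So did 6 pluripotent cell markers, at 681, 857 and 826 and at 975, 1015 and 605. Between CD43+ and CD43- cells 9 of these endothelial and 2 of these pluripotent markers were called lower on each day, and 0 higher. The part of any of these cell types in the spread of TAL1 was not tested.

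Other steps between sorted populations gave few calls. In CD43+ cells limma called 0 of 6 members from day 6 to day 9 (2 at an unadjusted p below 0.05) beside 7.53% of genes in either direction, and 0 of 6 from day 12 to day 16 (1 unadjusted) beside 9.05%. In CD43- cells it called 0 of 6 from day 6 to day 9 (3 unadjusted) beside 1.75%, and 0 of 6 from day 12 to day 16 (3 unadjusted) beside 10.4% in either direction.

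In order of level, TAL1 was highest in day 9 and day 6 CD43+ cells (6141 ± 348 and 6025 ± 290), whose ranges overlapped, then in day 16 CD43+ cells, whose range overlapped that of day 4, which in turn overlapped that of day 12 CD43+ cells. LYL1 peaked in day 9 CD43+ cells (3276 ± 108), clear of the next population. LMO2 was highest in day 6 CD43+ cells (4472 ± 289), with days 9, 16 and 12 of the CD43+ cells following and none of these 4 overlapping another. LDB1 was highest in day 6 CD43+ cells (5023 ± 447), overlapping those of day 9, and lowest in day 12 CD43+ cells (1269 ± 190), overlapping those of day 16, so the CD43+ side held both ends of its order. TCF3 was highest at day 0 (7105 ± 340), overlapping day 2, and lowest in day 16 CD43+ cells (1555 ± 22.5), overlapping those of day 12. CBFA2T3 was highest in day 9 CD43+ cells (1911 ± 32.6), clear of the next population, and lowest in day 9 CD43- cells, overlapping day 2.

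The relation between members was followed as the difference of their log2 values in each sample, with the exact permutation test of an F statistic over days and adjustment over 45 tests. Such a difference depends on gene length, so only its change over days is meant. Over days 0, 2 and 4 it changed for 14 of 15 pairs (9 samples, smallest possible p 0.00357). The exception was LYL1 with LMO2, at -0.53, -0.63 and 0.69 (p = 0.0429, adjusted p = 0.0551 in this exact test). This pair was near the threshold. It changed too, making 15 of 15, with a pseudocount of 10, without day 0 replicate 2 or without day 2 replicate 1. TAL1 minus LYL1 went from -1.88 at day 0 to -3.22 at day 2 and 1.08 at day 4 (adjusted p = 0.0115, exact). TAL1 minus TCF3 moved by 9.33 over these days, and LDB1 minus TCF3 by 1.26.

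In CD43+ cells the relation changed over days 6, 9, 12 and 16 for 10 of 15 pairs (12 samples, smallest possible p 6.49e-05). LYL1 minus LDB1 went from -0.91 and -0.30 on days 6 and 9 to 0.77 and 0.82 on days 12 and 16 (adjusted p = 0.00584, exact permutation). TAL1 minus LYL1 was 1.18, 0.91, -0.27 and 0.16 on these days (adjusted p = 0.00909, exact permutation). For TAL1 with LMO2, LDB1 and TCF3 no change was detected (adjusted p = 0.0849, 0.377 and 0.194, exact permutation). The same was so for LYL1 with CBFA2T3 and for LDB1 with TCF3 (adjusted p = 0.194 and 0.0652, exact permutation). In CD43- cells 10 of 15 pairs changed too, among them CBFA2T3 with each of the other 5 genes. TAL1 minus CBFA2T3 there fell from 3.99 and 3.91 on days 6 and 9 to 0.43 and 1.12 on days 12 and 16 (adjusted p = 0.00618, exact permutation).

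**Figure D4:**
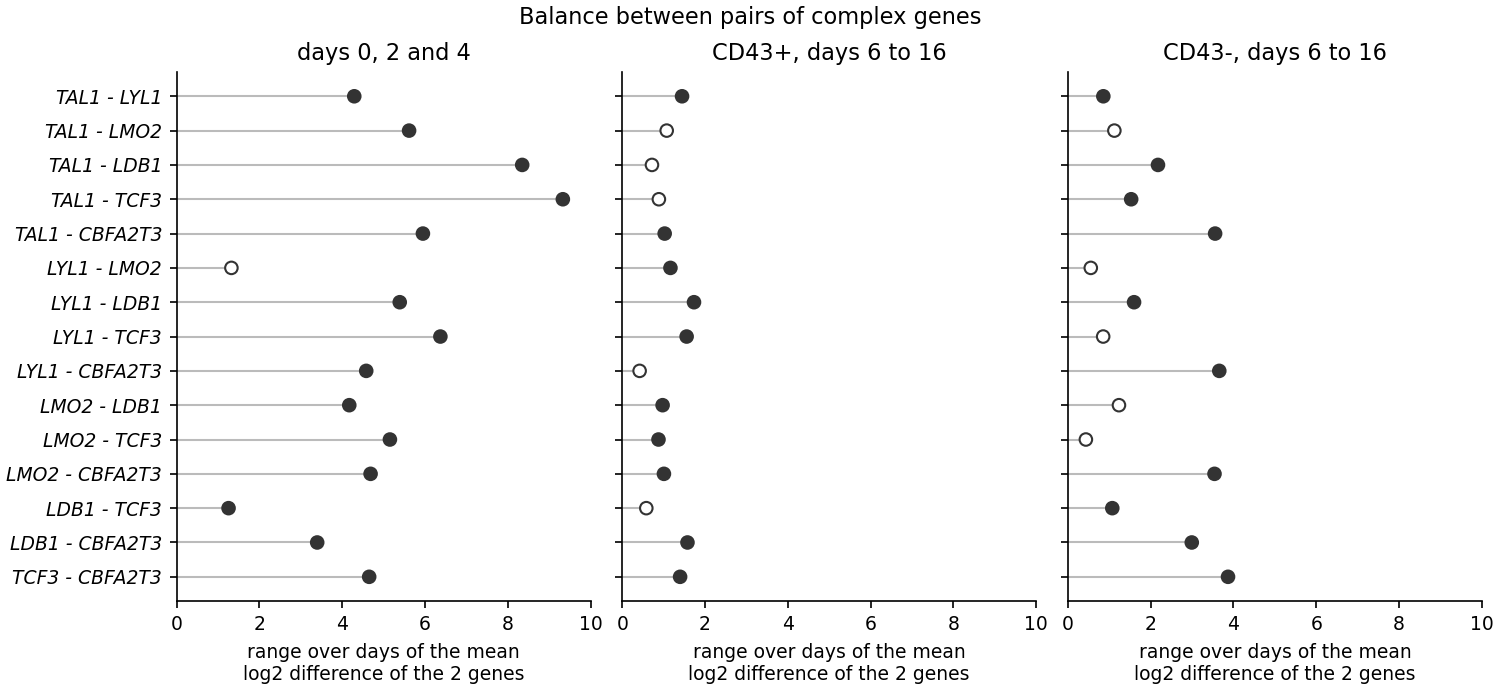
Range over days of the mean log2 difference between the 2 genes of each of 15 pairs, for days 0, 2 and 4 and for CD43+ and CD43- cells of days 6 to 16; filled points changed over days in the exact permutation test and open points did not pass it. The widest range is 9.33 for TAL1 with TCF3 over days 0, 2 and 4, where LYL1 with LMO2 is the 1 open point.

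Over the 11 population means, TAL1, LYL1 and LMO2 ran most alike, with Pearson's r of 0.958 for TAL1 and LYL1, 0.939 for TAL1 and LMO2 and 0.969 for LYL1 and LMO2. CBFA2T3 had r of 0.733, 0.724 and 0.633 with these 3 genes, and TCF3 had -0.524, -0.538 and -0.529. These are descriptions, since the populations share their day and their line. Among 13315 genes whose population means spanned at least 4-fold, LMO2 was the gene most like LYL1 and LYL1 the gene most like LMO2. Next for LYL1 were TAL1, STARD8 (0.957), RARA-AS1 (0.955) and SYNPO2L (0.948), and for LMO2 PRDM8 (0.964), NLRC3 (0.963), SLC26A1 (0.949) and HOXB-AS1 (0.948). For TAL1 the closest were the antisense RNAs HOXB-AS1 (0.977) and SENCR (0.975) and the gene RP1-18D14.7 (0.971), which overlaps TAL1 on the other strand. GRAPL and GRAP followed (0.965 and 0.964), near-identical copies that share reads and are uncertain. Closest to TCF3 were ERVMER34-1 (0.995), IPO11 (0.989), FAM95C (0.988), KLHL23 (0.983) and LIN28A (0.980), an RNA-binding protein of stem cells. The list for CBFA2T3 was APOBEC3C (0.965), TSPAN32 (0.962), EFHC2 (0.959), C11orf21 (0.958) and TMCC1-AS1 (0.951). For LDB1 it was RP11-893F2.6 (0.962), CELF3 (0.909), SELENBP1 (0.908), TRPV5 (0.895) and ACKR1 (0.890).

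RP1-18D14.7 was called higher than day 0 at day 4 by 6.68 and in day 6 CD43+ cells by 8.84, but not at day 2 (0.53). Whether the counting used strand is not stated, so its reads and those of TAL1 cannot be told apart where they overlap. The same holds for RP13-786C16.1 within LMO2 and for RP11-830F9.5 and RP11-830F9.6 within CBFA2T3. Of the genes next to TAL1, PDZK1IP1 was 4.17 higher in day 6 CD43+ cells than at day 0 and higher in CD43+ than CD43- cells on all 4 days, by 3.17, 5.52, 6.48 and 3.28. STIL, on the other side of TAL1, was 2.71 higher in CD43+ than CD43- cells of day 16 and -2.32 lower in day 16 than in day 12 CD43- cells, and its CD43 difference grew by 2.54 from day 6 to day 16, all called. NFIX, which ends 237 bases from LYL1, was 2.52 higher at day 4 than at day 0 and 3.87 higher in day 6 CD43+ than CD43- cells. TRMT1 beside LYL1 and FBXO3 and CAPRIN1 beside LMO2 were called in none of the comparisons.

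GATA1 and GATA2, the GATA factors that the complex joins in blood cells, came up in order. GATA2 was called at day 2 already, 5.69 above day 0, from 17.7 ± 5.51 to 935 ± 42.1 (SD, n = 3 each), on the same day as LYL1 and LMO2. GATA1, the erythroid and megakaryocyte member, was at 1 in each day 2 sample and at 140 to 203 at day 4, and was 6.20 above day 0. GATA3 was listed at 0 in all day 0 samples and at 915 to 1095 at day 2. Of these 3 genes 2 were called higher at day 2 and 3 at day 4, beside 4.40% and 7.28% of all genes. From day 4 to day 6 CD43- cells the differences were -4.37 for GATA1 and -2.40 for GATA2, both called, while GATA1 was 8.38 and GATA2 3.09 higher in CD43+ than CD43- cells of day 6. GATA3, by contrast, was lower in CD43+ cells on days 9, 12 and 16, by -2.43, -6.75 and -4.22.

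The ID genes encode Id proteins, which hold E proteins off DNA. Of 4 ID genes, 3 were called higher at day 2 than at day 0, ID1 by 2.43, ID2 by 2.25 and ID4 by 4.96. ID3 was 1.96 higher without being called, and 4.40% of all genes were called higher. ID3 was lower in CD43+ than CD43- cells on all 4 days, by -2.52, -3.51, -3.32 and -2.23. In CD43+ cells 1, 3, 3 and 2 of the 4 were called lower on days 6, 9, 12 and 16, and 0 were higher. Of all genes 7.85%, 12.8%, 14.4% and 13.6% were called lower and 4.68%, 8.65%, 11.8% and 12.2% higher. ID2 was called on none of these days. The list medians were -1.74, -3.31, -2.96 and -2.08 against 0.14 to 0.24 over all genes. Of the other E protein genes, TCF4 was 2.29 higher in day 6 CD43+ cells than at day 0 and TCF12 was not called. TAL2 did not pass the filter on low values.

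Among 7 other adaptor and scaffold genes, LDB2 was the one that moved in all 4 CD43 comparisons. This relative of LDB1 was lower in CD43+ cells by -2.80, -5.00, -6.76 and -6.66 on days 6, 9, 12 and 16, with 62.3 ± 2.52 in CD43+ and 2056 ± 437 in CD43- cells of day 9. On day 6 LMO4 was 2.22 higher in CD43+ cells. RUNX1T1, an ETO family corepressor like CBFA2T3, was lower in CD43+ cells on days 12 and 16, by -4.13 and -3.45. Of 10 chromatin cofactors that the complex recruits, limma called 0 between CD43+ and CD43- cells on days 6, 9, 12 and 16. At an unadjusted p below 0.05 there were 5, 7, 6 and 6, with a list median of 0.22 on day 6. Of all genes 12.5%, 21.5%, 26.2% and 25.8% were called in either direction on these days. KAT2B, an acetyltransferase, was 2.16 above day 0 at day 2, 3.20 at day 4 and 3.58 in day 6 CD43+ cells.

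**Figure D5:**
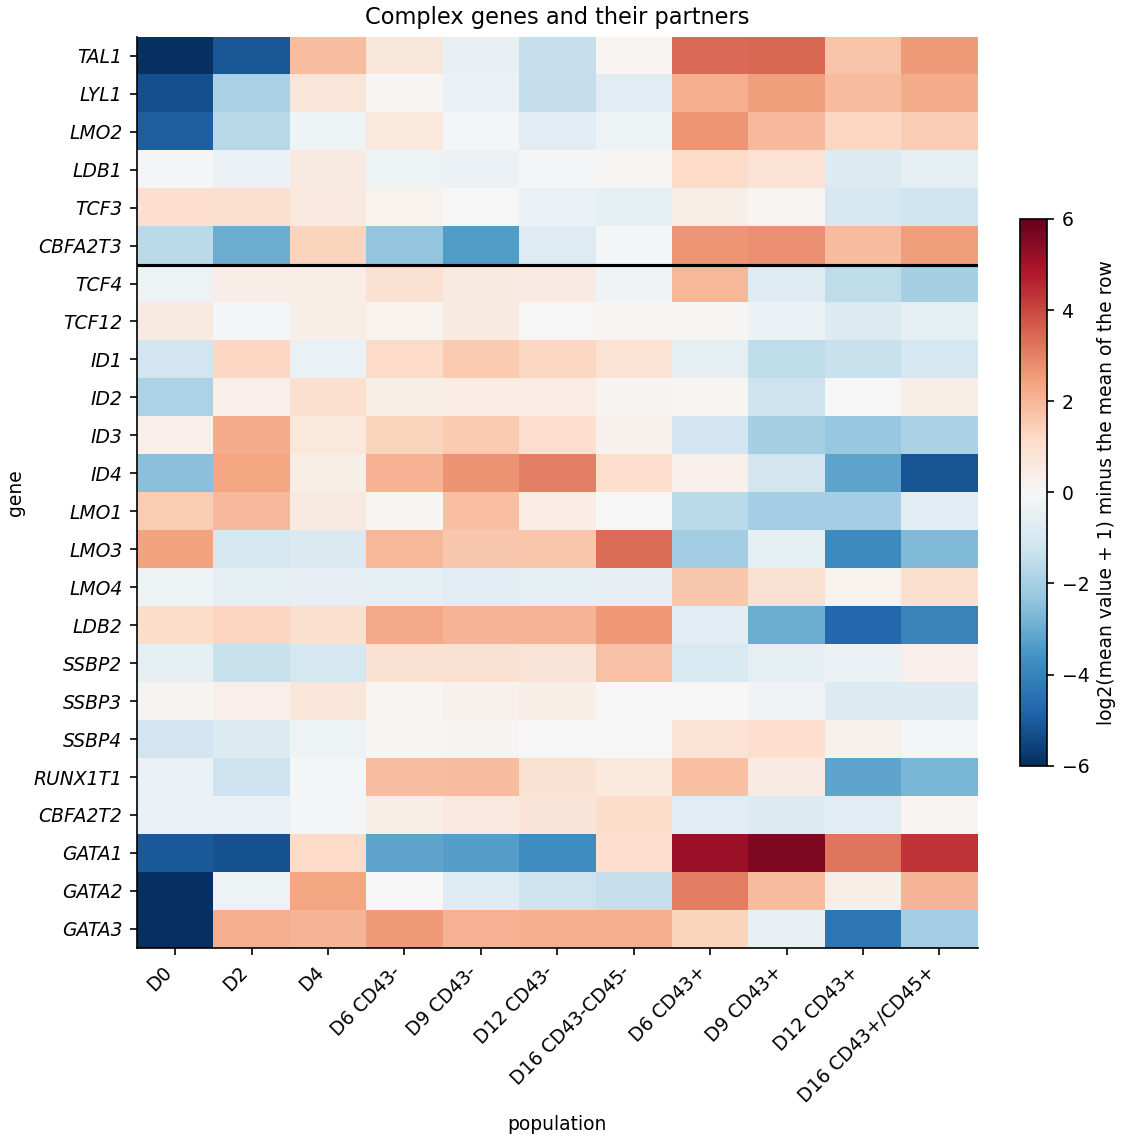
Log2(mean value + 1) of each gene minus the mean of its row over the 11 populations, for the 6 members (above the black line) and for the other bHLH, Id, adaptor and scaffold, ETO and GATA genes below it, with the colour scale limited to -6 and 6. TAL1 is at -6.81 at day 0, -5.14 at day 2 and 1.86 at day 4, and LDB2 is low in CD43+ cells from day 9 on.

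Of 15 genes known as targets of the complex, 2 were called higher at day 2 than at day 0 (RUNX1 by 2.62 and NFE2 by 2.08) and 2 lower (ERG and SLC4A1). Of all genes 4.40% were called higher and 3.48% lower there. At day 4 the count was 11 higher and 1 lower, beside 7.28% and 7.01% of all genes. The lower one was SLC4A1, which had 8 to 11 at day 0 and was listed at 0 at day 4. From day 4 to day 6 CD43+ cells 9 of the 15 were called higher, beside 6.80% of all genes. From day 4 to day 6 CD43- cells 7 were called lower, beside 2.77%. Between CD43+ and CD43- cells 10, 11, 11 and 9 of the 15 were called higher on days 6, 9, 12 and 16, and 0 were lower. Of all genes 4.68%, 8.65%, 11.8% and 12.2% were called higher and 7.85%, 12.8%, 14.4% and 13.6% lower. The list median on day 16 was 2.15, against 0.14 over all genes. RUNX1, a blood transcription factor, was higher by 3.64, 3.63, 2.76 and 4.81 on these days, and MYB, a factor of blood progenitors, by 5.42, 5.64, 7.57 and 5.72. FLI1 was called on none of these days.

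After day 9 some targets fell in CD43+ cells. Of the 15, 6 were called lower from day 9 to day 12, among them ALAS2 by -5.53 and KLF1, an erythroid factor, by -3.61. Of all genes 6.54% were called lower there. GATA1 and GATA3 were called lower in the same step, by -2.54 and -4.19. In CD43- cells 8 of the 15 targets were called higher from day 12 to day 16, beside 4.46% of all genes, together with 6 of 7 megakaryocyte, 6 of 6 neutrophil lineage, 7 of 10 erythroid and 4 of 6 mast cell and eosinophil markers, whose part was not tested. TAL1 in these cells was 214.7 ± 54.8 on day 12 and 619 ± 279 on day 16 (SD, n = 3 each).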

How the data were processed

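RNA was sequenced from H1 cells in 34 samples, grouped by day and sorted fraction from their labels. Reads were aligned by the authors (bowtie2, RSEM, Ensembl annotation), and the tag counts they deposited had been normalized with EDASeq, for GC content and then across samples. The processing notes also name STAR 2.7, bcl2fastq and hg38. The deposited values are whole numbers, treated as a normalized score, not raw counts. The deposited table also holds a GC percent for each gene. Sorted by size, all samples hold the same values, so depth is unknown, no counting interval could be given, and errors are the spread between replicates. At which of 2 sequencing companies a sample was run is not given in the sources used here.

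Log2(value + 1) was fitted with limma 3.58.1 (R 4.3.3; lmFit, eBayes with trend) over 33 samples and 11 populations, with 22 residual degrees of freedom per gene. Genes had to reach 10 in at least 3 samples, which 19788 did and 467 did not. Calls needed a Benjamini-Hochberg adjusted p below 0.05 over all genes tested and more than 4-fold change. The difference between members was tested with exact permutation of samples among days (two-sided, F statistic). Promoter windows came from RefSeq and annotation from GENCODE v29. Likeness was Pearson's r over 11 population means of log2(value + 1). The procedure was tested on simulated data. Summaries used Python 3.11.15, numpy 2.4.6, scipy 1.17.1, pandas 2.3.3 and matplotlib 3.10.9.

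The 6 genes, the gene lists and the markers were chosen with earlier results of these data known, and the lists were written from general knowledge. Genes named were the members, the genes of these lists, the genes beside or overlapping members, and those most like each member. Alternatives were pseudocounts of 0.1 and 10, no filter, a minimum of 100, a fold above 2, a replicate block, quantile normalization, robust variances, median-of-ratios scaling, a fit restricted to the compared populations and each replicate left out. Same-numbered CD43+ and CD43- samples deviated together across genes most on day 6 (r = 0.198, 0.109 and 0.199). On day 12 r was 0.084, 0.108 and 0.039, and on days 9 and 16 it lay between -0.015 and 0.078. The main fit, day 6 included, treated the samples as unpaired, and pairing entered only as the replicate block alternative. The undifferentiated sample entered no test. Values of 1 target gene are not reported here.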

Additional observations from a re-analysis of the deposited data

Results flagged for a closer look

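These 3 results were marked because the difference between CD43+ and CD43- cells itself changed with day in a test of that change. LDB1 went from 1.43 on day 6 to -0.64 on day 16, a change of -2.07 on the log2 scale (adjusted p = 2.69e-11 in limma). The CBFA2T3 difference went from 6.23 on day 9 to 2.76 on day 12, a change of -3.47 (adjusted p = 4.20e-07). From day 6 to day 16 the CBFA2T3 difference changed by -2.45 (adjusted p = 1.80e-05).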

How the results depend on the processing

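Of 1166 member results under alternatives, 1139 kept their direction and side of the threshold, 20 became called, 4 lost their call and 3 turned sign. Those that turned were TCF3 between CD43+ and CD43- cells, at -0.031 on day 6 and -0.041 on day 9 under median-of-ratios scaling and, on day 9, from -0.0057 to 0.287 with 1 replicate left out. A fold above 2 gave more members called, counted in either direction. At day 2 against day 0 there were 4, of which CBFA2T3 was lower (-1.31). From day 4 there were 4 to day 6 CD43+ and 2 to day 6 CD43-, and 3 in CD43+ cells of day 12 against day 9. For CD43- cells there were 1, 2 and 1 for the steps between days 6, 9, 12 and 16. The 2 from day 9 to day 12 were LYL1, which was lower (-1.04), and CBFA2T3, which was higher (2.62). LDB1 was then also called in day 6 CD43+ cells against day 0 (1.20), and LMO2 at day 4 against day 2 (1.37). Between CD43+ and CD43- cells LDB1 joined the called members on days 6 and 9 (1.43 and 1.17). LMO2 joined them on days 12 and 16 (1.86 and 1.78). For the change of the CD43 difference a fold above 2 gave 1 for days 6 to 9 and 2 for days 9 to 12. Median-of-ratios scaling left 1 for days 6 to 16. Of the other genes of the complex, a pseudocount of 10 called 7 in place of 11 at day 2 against day 0, 1 in CD43+ cells of day 16 against day 12, 0 in each of the steps from day 6 to 9 and 9 to 12 of CD43- cells, and 4 and 5 for the CD43 difference over days 6 to 9 and 12 to 16. A pseudocount of 0.1 called 6 from day 9 to day 12 in CD43- cells. A fold above 2 called 20 from day 2 to day 4, 16 from day 4 to day 6 CD43-, 27 between the day 16 populations, 12, 20 and 9 for successive steps of CD43+ cells and 9 for CD43- cells of day 12 against day 9. With 1 replicate left out, members called ranged from 2 to 3 at day 2, from 2 to 4 between the day 6 populations and from 0 to 1 for CD43+ cells of day 12 against day 9, and pairs whose relation changed from 14 to 15, 9 to 12 and 8 to 11. The replicate block, over all samples or within day 6, changed no member call: with it TAL1 differed by 2.81 between the day 6 populations. Causes of these changes were not tested.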

Other observations

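The single undifferentiated H1 sample, without a replicate and in no comparison, had values of 6 for TAL1, 20 for LYL1, 38 for LMO2, 1849 for LDB1, 7478 for TCF3 and 75 for CBFA2T3. Those of TAL1, TCF3 and CBFA2T3 lie within the range of the day 0 EBs, and those of LYL1, LMO2 and LDB1 lie just outside it.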
